A study of Mus musculus with 51 samples.

Results

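The mammary glands of sham-exposed C57BL/6 mice were compared at 1 month (4 mice) and at 4 hr (3 mice) after the last of 4 weekly sham exposures. These 7 arrays were chosen by strain, exposure and time as labelled, out of 51 arrays in the series and 43 of mammary gland. The series set ionizing radiation against sham handling in C57BL/6 and BALB/c mice, at a low dose (LD, 7.5 cGy per exposure) and a high dose (HD, 1.8 Gy per exposure). The mice were virgin females, 8 weeks old when the exposures began, and received no radiation in either sham group. Each array held RNA of 1 mouse, from the 4th pair of glands after the inguinal lymph node was cut out. The 1-month mice were older at harvest than the 4-hr mice by the time between the harvests, so age and time since the last handling cannot be told apart. Harvest date, hour of day and feeding state are not among the sample labels used here. They cannot be told apart from time either. The estrous cycle was not synchronised.

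The gland of a young virgin mouse is a tree of ducts within a fat pad, so its RNA comes from adipocytes, epithelium, fibroblasts, vessels and immune cells together. The share of each was not measured here. White adipocytes take up glucose through GLUT4 under insulin and turn it into fatty acids and triglycerides. The enzymes of this path are driven by the transcription factors SREBP1c and ChREBP, and those of cholesterol synthesis by SREBP2. Patches of brown-like adipocytes can lie within the pad of young mice and burn fat in mitochondria through the uncoupling protein UCP1. In a whole gland, fewer cells of a type and less RNA per cell cannot be told apart.

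The labelled tissue carried its defining markers in all 7 arrays. Adiponectin (Adipoq) lay at 13.4 to 13.7 in the 1-month arrays and 13.4 to 13.6 in the 4-hr arrays (log2 level after robust multi-array averaging, RMA), and the luminal keratin Krt8 at 11.2 to 12.6 at 1 month and 11.4 to 11.8 at 4 hr. The B cell gene Cd79a lay at 4.12 to 4.30 at 1 month and 4.15 to 4.42 at 4 hr, and the groups were alike low. Array medians ran from 6.29 to 6.34, and each array's median correlation with the other 6 from 0.984 to 0.991. The first principal component held 37% of the variance, with the array of 1-month replicate 2 at -33 and that of 4-hr replicate 2 at 36.2. Replicate 2 of the 1-month group carried skeletal muscle transcripts, and replicate 4 a lesser amount, as given further on. Counts are shown with and without these arrays.

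More genes were lower than higher in the glands at 1 month. In the limma fit, 358 of 11807 genes (3.03%) fell and 97 (0.822%) rose at a Benjamini-Hochberg adjusted p under 0.05, counting a gene if any of its probe sets passed. The arrays of the 2 times did not overlap for 441 of these 455 genes, of which 350 were lower and 91 higher. Over all genes they did not overlap for 1921 (16.3%) by the brightest probe set. The 455 were picked by the same difference, so their separation adds no support. At an unadjusted p under 0.01 and at least 1.5-fold, 324 genes (2.74%) passed, 258 lower and 66 higher at 1 month. Enzymes of fatty acid, sterol and glycogen synthesis, the glucose transporter GLUT4 and mitochondrial proteins were among the genes that fell, and Angptl4, Txnip and Irs1 among those that rose. The median difference over all genes was 0.01.

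How many genes passed rested on single arrays of both groups. Without replicate 2 of the 1-month mice, 11 genes were called lower and 4 higher, and without replicate 3 they were 15 and 8. All of these were among the calls of the full fit. Without replicate 2 of the 4-hr mice no gene was called in either direction by limma, with a smallest adjusted p of 0.0925 and 1564 genes at an unadjusted p under 0.05, against 2583 in the full fit. Leaving out 4-hr replicate 1 gave 298 lower and 180 higher, and 4-hr replicate 3 gave 285 and 28. The direction of all 643 probe sets called in the full fit was kept in each of these 7 fits. They were picked by this difference in the same arrays, so the kept direction adds no support. Without 1-month replicates 2 and 4 together, both with muscle transcripts, 21 genes were lower and 1 higher, of which 19 and 1 were calls of the full fit. The 15 genes called without 1-month replicate 2 alone were Txnip, Angptl4, Mbtd1 and Simc1, which rose, and Mid1ip1, Ywhag, Hk2, Msmo1, Isca1, Mtfp1, Angptl8, Ebf3, Phlda3, Hacd2 and C330007P06Rik, which fell.

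**Figure D1:**
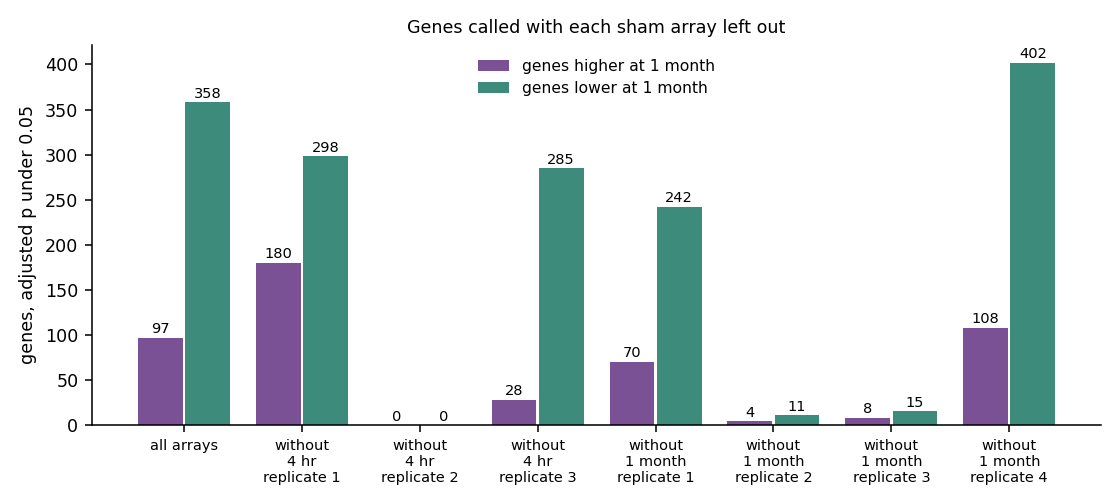
Number of genes (y axis) higher or lower in C57BL/6 sham glands at 1 month than at 4 hr at an adjusted p under 0.05, with all arrays and with each sham array left out in turn (x axis). The bars stand at 358 lower and 97 higher with all arrays and at 0 without 4-hr replicate 2.

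Angptl8, an insulin-induced regulator of lipoprotein lipase made by fat and liver, had the lowest difference among called genes whose arrays did not overlap. Its log2 level was 6.46, 5.69, 6.18 and 6.28 in the 1-month arrays, against 9.09, 9.57 and 9.12 in the 4-hr arrays. All 1-month arrays lay well below all 4-hr arrays. The difference was -3.11 ± 0.44 (SE), or 8.62-fold, with a limma adjusted p of 0.00517. It was -2.95 without 1-month replicate 2 (adjusted p = 0.0354) and also -2.95 without 4-hr replicate 2 (adjusted p = 0.0925, the highest over all alternatives, whose lowest was 0.00234).

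Angptl4 encodes an inhibitor of the same lipase and is induced by fasting and by fatty acids through PPARs. It stood at 11.77, 11.73, 11.55 and 11.76 at 1 month, against 10.35, 9.56 and 10.18 at 4 hr. This gene thus ran opposite to Angptl8, and its 1-month arrays lay within a narrow range. The difference was 1.67 ± 0.27, or 3.18-fold (adjusted p = 0.0104), and 1.44 once 4-hr replicate 2 was left out. Its adjusted p ran from 0.00614 to 0.199 over the alternatives, with the highest in that fit.

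Chil1, a secreted chitinase-like protein of epithelium and macrophages, had the highest difference among called genes whose arrays did not overlap. Levels were 8.97, 8.98, 7.46 and 9.17 at 1 month, against 7.19, 5.08 and 5.37 at 4 hr. Replicate 3 at 1 month and replicate 1 at 4 hr came close to each other, and the other arrays were far apart. The difference was 2.77 ± 0.56 (adjusted p = 0.0183).

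Txnip, which binds thioredoxin and restrains glucose uptake, stood at 11.17, 11.24, 11.11 and 11.44 at 1 month, against 10.66, 10.11 and 10.47 at 4 hr. It was higher in every 1-month array, by 0.83 ± 0.13 (adjusted p = 0.0102). Acot1, a cytosolic thioesterase that frees fatty acids from coenzyme A, stood at 8.44, 8.64, 9.49 and 8.32 at 1 month, against 7.29, 7.31 and 7.51 at 4 hr. It rose by 1.36 ± 0.30 (adjusted p = 0.0239). Its mitochondrial paralog Acot2 rose by 1.05 ± 0.25 (adjusted p = 0.0302), although that probe set may take up transcripts of both genes. The other genes among the 10 with the highest differences were Rasl11b at 0.89, Ets2 at 0.78, Irs1 at 0.77 and Fam13b at 0.74, with B3galt2 above these, and their adjusted p lay between 0.0185 and 0.0376. Their arrays did not overlap between the times, which the rule that chose them required.

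The 10 genes with the lowest differences followed Angptl8 with Elovl3, Cidea and Mid1ip1. Mid1ip1, which makes acetyl-CoA carboxylase polymerise, stood at 8.70, 8.18, 8.07 and 8.27 at 1 month, against 10.17, 10.90 and 10.15 at 4 hr. The gap between the groups was wider than the spread within either, and Mid1ip1 fell by 2.10 ± 0.34 on the log2 scale (adjusted p = 0.0104). Gpd1, which makes the glycerol phosphate for triglycerides, stood at 9.69, 9.15, 9.09 and 10.36 at 1 month, against 11.20, 11.86 and 11.14 at 4 hr. It fell by 1.83 ± 0.40 (adjusted p = 0.0229), with replicate 4 the highest of the 1-month arrays. Pank1, which starts the synthesis of coenzyme A, fell by 1.69 ± 0.36 (adjusted p = 0.0225), and the kinase gene Sbk1 fell by 1.74 ± 0.43 (adjusted p = 0.0346). The remaining members, Elovl3, Cidea, Acacb, Gbe1 and Cyp51, are described with their pathways. Over the alternatives all 20 named genes kept the sign of their difference, and the highest adjusted p of each lay between 0.0925 and 0.293. With 1 array left out no sign could change, since the genes were picked for arrays that did not overlap.

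**Figure D2:**
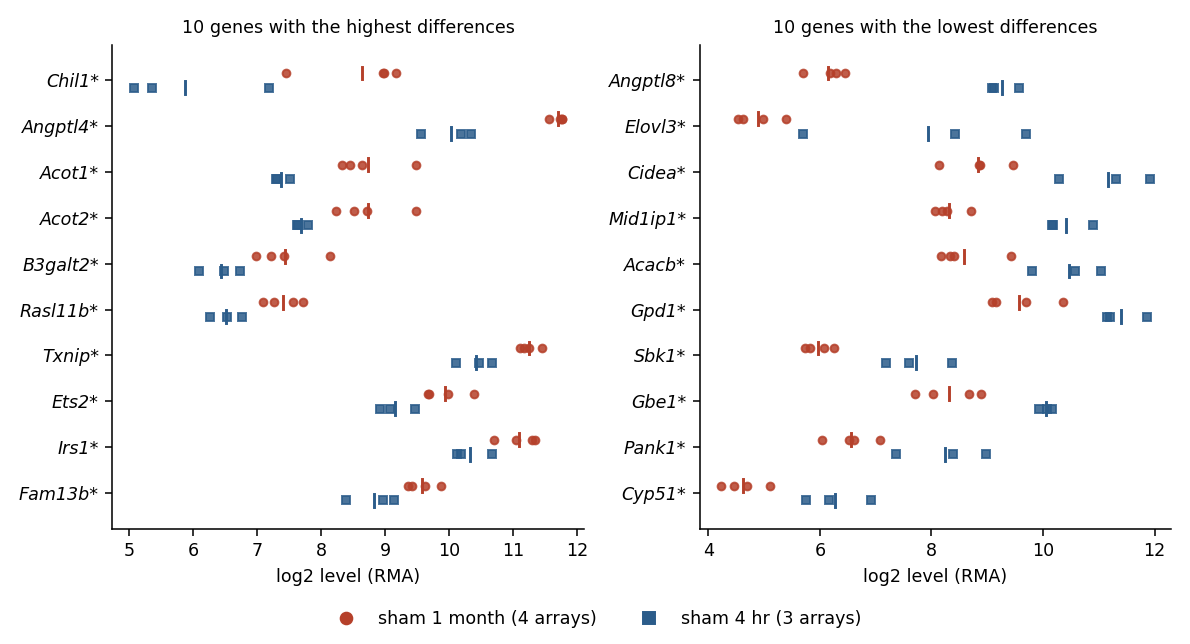
RMA log2 level (x axis) of the 10 genes with the highest and the 10 with the lowest differences among called genes whose arrays did not overlap. Each point is 1 array of the sham 1-month (4) or sham 4-hr (3) group, bars are group means and asterisks mark adjusted p under 0.05. The groups stand apart for all 20 genes by the rule that chose them.

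All 13 measured genes of cholesterol synthesis had a lower mean at 1 month, 6 of them with a call by the brightest probe set of each gene, where 285 of all 11807 genes (2.41%) fell and 74 (0.627%) rose. Arrays did not overlap for 12 of the 13 genes (92.3%), beside 1921 of all genes (16.3%). The median difference was -1.20, beside 0.01 over all genes. It lay between -1.32 and -0.97 when single sham arrays were left out, although no member was called without 1-month replicate 2, without 1-month replicate 3 or without 4-hr replicate 2. Msmo1, a sterol methyl oxidase of the same path that the list did not hold, fell by 1.20 ± 0.22 (adjusted p = 0.0164) and was called without 1-month replicate 2 (adjusted p = 0.0499).

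Idi1, which isomerises the building block of all isoprenoids, stood at 8.44, 8.00, 7.70 and 7.90 at 1 month, against 9.25, 9.55 and 9.13 at 4 hr. The difference was -1.30 ± 0.27 (adjusted p = 0.0195). Squalene synthase (Fdft1), the first step committed to sterols, stood at 8.97, 8.60, 8.75 and 9.06 at 1 month, against 9.67, 10.43 and 9.59 at 4 hr. It fell by 1.05 ± 0.22 (adjusted p = 0.0205). All 1-month arrays lay below all 4-hr arrays in both genes, with 4-hr replicate 2 the highest array in each. The sterol demethylase Cyp51 fell in both probe sets described. In the brighter it stood at 6.99, 6.67, 6.31 and 6.5 at 1 month, against 8.33, 8.93 and 7.92 at 4 hr, and in the other it fell by 1.66 ± 0.35 (adjusted p = 0.0204). Sc5d, the desaturase near the end of the path, stood at 10.16, 9.39, 9.46 and 9.85 at 1 month, against 10.93, 11.35 and 10.78 at 4 hr, a difference of -1.30 ± 0.29 (adjusted p = 0.0235). Squalene epoxidase (Sqle, -1.06, adjusted p = 0.0432) and Mvd (-1.36, adjusted p = 0.047), named after their values were seen, complete the 6. The 7 that missed the threshold ran from -1.43 for Fdps, which makes farnesyl diphosphate (adjusted p = 0.0563), to -0.40 for the sterol carrier Stard4 (adjusted p = 0.222). Stard4 was the 1 member whose arrays overlapped, with 1-month replicate 1 above 4-hr replicate 3.

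The promoters of 4 called genes of this list are shown with their CCAAT boxes. SREBP acts on sterol genes together with the factor NF-Y, which binds CCAAT boxes. The 250 bases before the annotated start were taken from RefSeq (GRCm38.p6), 5′ to 3′ on the gene's strand, with each CCAAT, or ATTGG where the box lies on the other strand, in capitals.
Cyp51, chr5:4104698-4104947, minus strand: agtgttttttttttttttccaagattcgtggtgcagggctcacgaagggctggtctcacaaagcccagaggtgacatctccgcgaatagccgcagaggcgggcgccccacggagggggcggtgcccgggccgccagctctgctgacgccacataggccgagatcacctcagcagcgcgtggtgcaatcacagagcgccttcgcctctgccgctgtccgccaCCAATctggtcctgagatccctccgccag
Idi1, chr13:8885356-8885605, plus strand: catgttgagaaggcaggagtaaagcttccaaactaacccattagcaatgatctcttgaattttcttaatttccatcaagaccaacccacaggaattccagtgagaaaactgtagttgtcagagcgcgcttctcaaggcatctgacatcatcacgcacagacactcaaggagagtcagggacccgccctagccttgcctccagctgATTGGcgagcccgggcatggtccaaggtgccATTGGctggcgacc
Mvd, chr8:122443423-122443672, minus strand: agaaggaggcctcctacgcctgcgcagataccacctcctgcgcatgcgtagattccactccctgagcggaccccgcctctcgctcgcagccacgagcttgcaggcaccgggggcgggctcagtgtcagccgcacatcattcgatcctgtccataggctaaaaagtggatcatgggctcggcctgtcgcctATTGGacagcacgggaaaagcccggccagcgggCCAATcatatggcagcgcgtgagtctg
Sc5d, chr9:42264301-42264550, minus strand: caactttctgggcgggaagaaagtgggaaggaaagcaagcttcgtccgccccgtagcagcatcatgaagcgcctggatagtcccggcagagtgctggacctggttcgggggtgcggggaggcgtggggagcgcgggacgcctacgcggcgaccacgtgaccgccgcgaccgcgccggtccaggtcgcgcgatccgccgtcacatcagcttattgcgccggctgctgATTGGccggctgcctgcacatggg
The box nearest the start began 29 bases before it in Cyp51, 14 in Idi1, 27 in Mvd and 24 in Sc5d, and Idi1 and Mvd held a further box at 45 and 60 bases. Of the 13 genes, 9 had an entry, and a CCAAT box stood on either strand of at least 1 promoter in all 9 (100%), beside 10133 of 27025 genes in the table (37.5%) and 40.2% of the array's genes with an entry. The other 4 were Fdft1, Fdps, Sqle and Stard4. The E-box CACGTG was found in 3 of the 9 (33.3%), beside 6.86% of genes in the table. TCACNCCAC, 1 form of the sterol regulatory element, was found on either strand in 0 of the 9, beside 1.22%. The boxes overlapped 0 matches of the other motifs, and a match is no measure of binding. A CCAAT box stood in 60% of fatty acid and triglyceride synthesis genes with an entry (list below). Shares were 57.9% for the tricarboxylic acid cycle, 42.6% for the respiratory chain and 38.7% for the mitochondrial ribosome. Whether the boxes bear on the decrease was not tested.

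All 20 measured genes of fatty acid and triglyceride synthesis also had a lower mean at 1 month, with a median of -1.10. Of these 4 were called (20%), beside 2.41% of all genes. Arrays did not overlap for 13 of them (65%), beside 16.3% of all genes. Acacb, the mitochondrial acetyl-CoA carboxylase whose product blocks fatty acid entry, stood at 8.16, 8.34, 8.40 and 9.42 at 1 month, against 10.57, 11.05 and 9.81 at 4 hr. It fell by 1.90 ± 0.39 (adjusted p = 0.0183), and replicate 4 at 1 month came closest to the lowest 4-hr array. The phosphatidate phosphatase Lpin1 stood at 9.69, 9.75, 9.58 and 10.32 at 1 month, against 10.74, 10.95 and 10.75 at 4 hr, and it fell by 0.98 ± 0.22 (adjusted p = 0.0253). Thrsp, the partner of Mid1ip1, stood at 13.05, 12.43, 12.86 and 13.35 at 1 month, against 13.79, 13.98 and 13.69 at 4 hr, a decrease of 0.90 ± 0.24 (adjusted p = 0.0495). Elovl3, which lengthens fatty acids and is prominent in brown fat, stood at 4.53, 4.63, 4.99 and 5.4 at 1 month, against 8.42, 9.70 and 5.69 at 4 hr. Its arrays did not overlap, but replicate 3 at 4 hr was close to the 1-month arrays, and the difference of -3.05 had an SE of 0.69 (adjusted p = 0.0253). Several members separated the groups without reaching the threshold. The fructose transporter Slc2a5 stood at 5.94, 5.07, 5.78 and 6.16 at 1 month, against 8.40, 8.80 and 7.93 at 4 hr (difference -2.64 ± 0.74, adjusted p = 0.0565), and Mlxipl, which encodes ChREBP, at 9.05, 9.42, 9.51 and 9.49 at 1 month, against 10.70, 11.13 and 9.95 at 4 hr (difference -1.23 ± 0.34, adjusted p = 0.0512). In Acly, which makes cytosolic acetyl-CoA, the levels were 12.23, 11.16, 12.02 and 12.36 at 1 month, against 13.46, 13.53 and 13.22 at 4 hr, and replicate 2 at 1 month was the lowest (difference -1.46 ± 0.52, adjusted p = 0.126). Other members that missed the threshold had differences of -1.90 for Acaca (adjusted p = 0.071), -0.55 for fatty acid synthase Fasn (adjusted p = 0.227) and -0.18 for the desaturase Scd1 (adjusted p = 0.335). At the lower end, the desaturase Fads1 and the acyltransferase Dgat1 differed by -0.03 and -0.06, with overlapping arrays. No member was called without 1-month replicate 2, 1-month replicate 3 or 4-hr replicate 2, and the median lay between -1.22 and -0.94 over the 7 fits with 1 array left out.

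**Figure D3:**
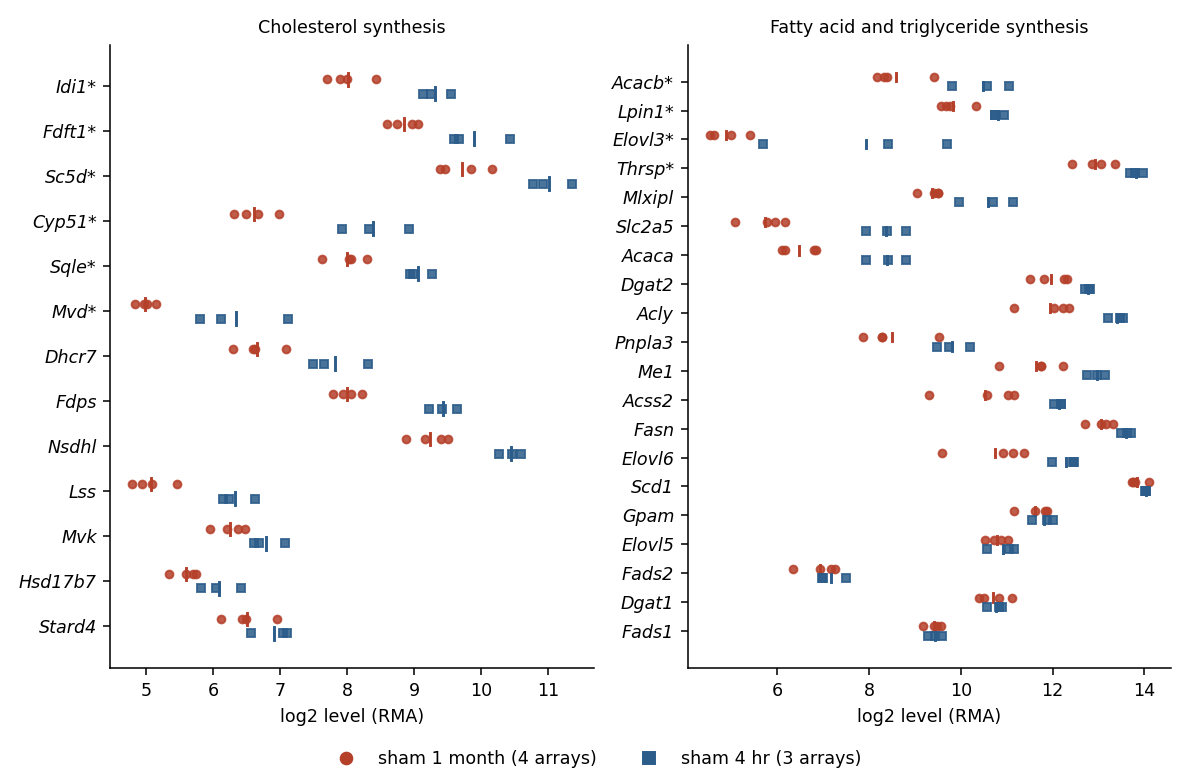
RMA log2 level (x axis) of every measured gene of cholesterol synthesis (13) and of fatty acid and triglyceride synthesis (20), brightest probe set, ordered by p. Points are the arrays of the sham 1-month (4) and sham 4-hr (3) groups, bars are group means and asterisks mark adjusted p under 0.05; the mean is lower at 1 month for all 33 genes.

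Some genes of glucose uptake and early glucose use were among those that fell. The glucose and glycogen lists and the 3 mitochondrial lists below were written after the values of the fit had been seen, so their counts are descriptions. Of 17 genes of glucose uptake and glycolysis, 4 fell (23.5%), beside 2.41% of all genes, and the median difference was -0.39. Hexokinase 2 (Hk2), which traps glucose in the cell, stood at 9.73, 9.85, 9.52 and 9.59 at 1 month, against 11.02, 11.62 and 10.73 at 4 hr. It fell by 1.45 ± 0.27 (adjusted p = 0.0166), and the 1-month arrays lay in a narrower range than the 4-hr arrays. The insulin-responsive transporter Slc2a4 (GLUT4) stood at 9.75, 9.14, 9.12 and 9.83 at 1 month, against 10.58, 10.95 and 10.38 at 4 hr, a decrease of 1.18 ± 0.26 (adjusted p = 0.0239). The others were Pfkl, the liver-type phosphofructokinase, which fell by 1.39 ± 0.30 (adjusted p = 0.0221), and the aldolase Aldoa, which fell by 0.72 ± 0.17 (adjusted p = 0.0279). Without 1-month replicate 2, Hk2 was called and the other 3 were not, and none of the list was called without 1-month replicate 3 or without 4-hr replicate 2.

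Of 16 glycogen genes 3 fell (18.8%), beside 2.41% of all genes, with a median of -0.26. Differences were below 0 for 13 and above 0 for 3, up to 0.51. Gbe1, the branching enzyme, stood at 8.67, 7.71, 8.02 and 8.89 at 1 month, against 10.07, 10.16 and 9.93 at 4 hr. It fell by 1.73 ± 0.45 (adjusted p = 0.0413). Gys2, a glycogen synthase best known from liver, stood at 6.79, 6.31, 6.49 and 6.88 at 1 month, against 8.14, 8.63 and 7.97 at 4 hr. It fell by 1.63 ± 0.41 (adjusted p = 0.0375), and for both enzymes the groups were clearly separate. Ppp1r3c, which tethers a phosphatase to glycogen, fell by 1.21 ± 0.31 (adjusted p = 0.0393). None of the 3 was called without 1-month replicate 1, 2 or 3 or without 4-hr replicate 2 or 3.

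Mitochondrial genes had many small decreases. Of 84 genes of the respiratory chain and ATP synthase, 31 fell (36.9%), beside 2.41% of all genes. None of the 84 rose and 81 had a negative difference, with a median of -0.34. Arrays did not overlap for 65 of them (77.4%), beside 16.3% of all genes. Of 70 genes of the mitochondrial ribosome 19 fell (27.1%), 67 were below 0 and the median was -0.30. Of 21 genes of the tricarboxylic acid cycle and pyruvate dehydrogenase 10 fell (47.6%), 20 were below 0 and the median was -0.45. The medians stayed between -0.57 and -0.24 in all 3 lists with single arrays left out, while the counts fell to 0 for each list without 1-month replicate 2 or 4-hr replicate 2, and to 1, 2 and 0 without 1-month replicate 3. With the 7 sham arrays alone in the fit, 3, 2 and 3 genes of the lists fell.

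Cytochrome c (Cycs), the carrier between complexes III and IV, stood at 11.30, 11.11, 11.18 and 11.42 at 1 month, against 12.11, 12.25 and 11.86 at 4 hr. It fell by 0.82 ± 0.14, or 1.77-fold (adjusted p = 0.0138). The complex I subunits Ndufab1, Ndufs8 and Ndufs3 fell by 0.54, 0.54 and 0.53 (adjusted p = 0.0166, 0.0183 and 0.0183). These differences were small, and each of these genes had all its 1-month arrays below all its 4-hr arrays. The genes were named for their small p in these arrays, so that separation adds no support. Among ribosomal proteins, Mrps36 stood at 8.2, 8.17, 8.3 and 8.29 at 1 month, against 8.79, 9.14 and 8.65 at 4 hr, and fell by 0.62 ± 0.11 (adjusted p = 0.0164). Mrps23, Mrpl50 and Mrpl16 fell by 0.51, 0.59 and 0.56. In the cycle, Idh3a, a subunit of the NAD-dependent isocitrate dehydrogenase, stood at 10.99, 10.94, 10.97 and 11.29 at 1 month, against 11.77, 11.95 and 11.63 at 4 hr. It fell by 0.74 ± 0.15 (adjusted p = 0.0183). Dlat, the acetyl-transferring subunit of pyruvate dehydrogenase, fell by 1.16 ± 0.27 (adjusted p = 0.0269), Suclg1 by 0.66 and Sdhb by 0.45.

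Of 13 genes of fatty acid oxidation 4 fell (30.8%), beside 2.41% of all genes, and the median was -0.42. None of the 13 was called as lower without 1-month replicate 2, without 1-month replicate 3, without 4-hr replicate 2 or with the 7 sham arrays alone in the fit, and 1 was without 1-month replicate 1 or 4-hr replicate 1. The median ran from -0.61 without 4-hr replicate 3 to -0.27 without 4-hr replicate 2. The trifunctional protein subunit Hadhb fell by 0.53 ± 0.13 (adjusted p = 0.0293), the dehydrogenases Acadvl and Acadm by 0.64 and 0.49, and the uncoupling protein Ucp3 by 0.80 ± 0.17 (adjusted p = 0.0229). Their arrays did not all separate, since replicate 3 at 4 hr lay within the 1-month range in Hadhb and Acadvl. Over the whole list, the mean level relative to the median of the 7 arrays was -0.20, -0.10, -0.07 and 0.14 at 1 month, against 0.29, 0.72 and -0.10 at 4 hr.

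Brown adipocyte markers were lower at 1 month as well. Their list shares at least Elovl3 with the fatty acid synthesis list, so the lists are not separate measures. The lowest differences of the respiratory chain and fatty acid oxidation lists, -2.13 and -1.79, also equal those of Cox7a1 and Cpt1b given below. Their mean level over 10 genes was 6.11, 6.11, 6.66 and 6.41 in the 1-month arrays, against 7.87, 8.79 and 6.53 in the 4-hr arrays. Replicate 2 at 4 hr was highest and replicate 3 at 4 hr lay among the 1-month arrays. The median difference was -1.31 and ran from -1.93 to -0.77 with single arrays left out. Of the 10 genes, 9 were below 0 and 2 fell (20%), beside 2.41% of all genes. Ucp1 stood at 5.35, 6.70, 9.00 and 6.69 at 1 month, against 10.91, 12.02 and 7.26 at 4 hr, a difference of -3.13 ± 1.28 that missed the threshold (adjusted p = 0.193). Cidea, a lipid droplet protein abundant in brown fat, stood at 8.87, 8.14, 8.85 and 9.46 at 1 month, against 11.30, 11.91 and 10.29 at 4 hr, and fell by 2.34 ± 0.43 (adjusted p = 0.0164). The other called member was Elovl3, given above. Without 1-month replicate 2 or 4-hr replicate 2 neither was called, and without 4-hr replicate 3, 5 members were. Cox7a1 (-2.13, adjusted p = 0.0679) and Cpt1b (-1.79, adjusted p = 0.0885) missed the threshold. The part of the brown adipocyte markers in the mitochondrial and lipid differences was not tested.

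Among 16 white adipocyte markers 1 fell, Slc2a4 (6.25%, beside 2.41% of all genes), and the median was -0.07. Adipoq and Fabp4 differed by -0.03 each, with a 95% interval of -0.20 to 0.15 for Adipoq. Leptin (Lep) stood at 9.97, 8.07, 8.25 and 8.10 at 1 month, against 9.72, 10.27 and 10.12 at 4 hr. Replicate 1 at 1 month stood among the 4-hr arrays, and the difference of -1.44 missed the threshold (adjusted p = 0.077).

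**Figure D4:**
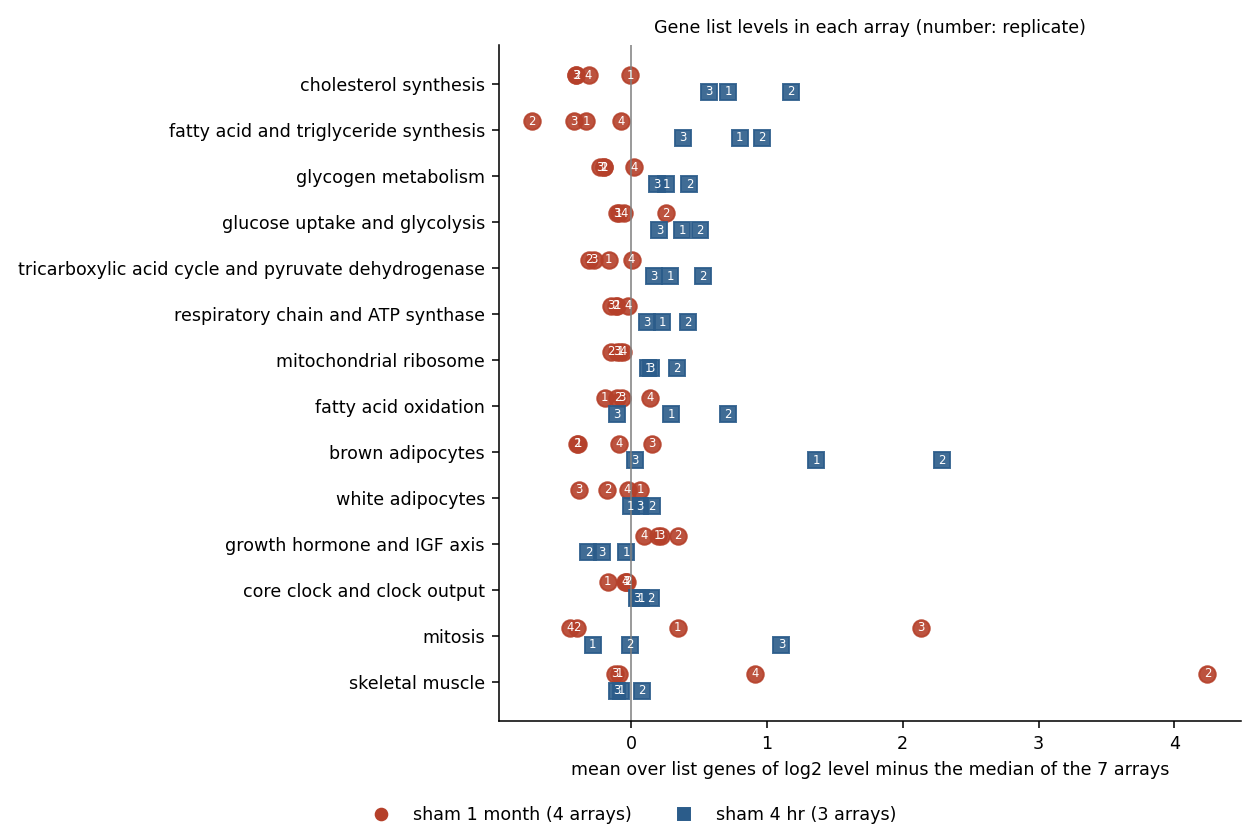
Mean over the genes of each list of the RMA log2 level minus the median of the 7 arrays (x axis), 1 point per array with its replicate number, for the sham 1-month (4) and sham 4-hr (3) groups. The cholesterol and fatty acid lists separate the groups, brown adipocyte genes stand high in 4-hr replicates 1 and 2, and skeletal muscle genes in 1-month replicates 2 and 4.

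Genes of the growth hormone and IGF axis leaned the other way, with 13 of 14 above 0 and a median of 0.36. Only 1 was called higher (7.14%, beside 0.627% of all genes). This was Irs1, the adaptor that carries the insulin and IGF1 signal, at 10.71, 11.34, 11.29 and 11.05 at 1 month, against 10.66, 10.18 and 10.13 at 4 hr. Replicate 1 of the 1-month group was barely above the highest 4-hr array, and Irs1 rose by 0.77 ± 0.17 (adjusted p = 0.0225). The call was lost in 6 of 18 alternatives, among them without 1-month replicate 2 or 3 and without 4-hr replicate 2 or 3. Socs2, the feedback inhibitor of growth hormone signalling, stood at 8.60, 9.86, 9.61 and 8.83 at 1 month, against 8.24, 7.59 and 7.58 at 4 hr, a difference of 1.42 ± 0.44 (adjusted p = 0.0807). Stat5b (0.34, adjusted p = 0.112) and Igfbp5 (0.65, adjusted p = 0.154) also missed the threshold.

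In the clock, glucocorticoid and p53 lists 1, 3 and 2 genes were called. Of 20 clock genes, Usp2, a deubiquitinase under clock control, fell by 0.99 ± 0.23 (adjusted p = 0.028), and the list median was -0.10. This call was 5% of the list, beside 2.41% of all genes that fell. Arrays did not overlap for 8 clock genes (40%), beside 16.3% of all genes, and 11 were below 0 and 9 above. The list's mean level relative to the 7-array median was -0.17, -0.03, -0.04 and -0.05 at 1 month, against 0.07, 0.15 and 0.05 at 4 hr. Of 17 glucocorticoid response genes, Angptl4 rose, while the sulfotransferase Sult1a1 (-0.73 ± 0.15, adjusted p = 0.0183) and metallothionein Mt1 (-0.57 ± 0.13, adjusted p = 0.0271) fell. These are 5.88% higher and 11.8% lower, beside 0.627% and 2.41% of all genes. Fkbp5, a classical target of the glucocorticoid receptor, stood at 7.78, 7.78, 7.35 and 7.23 at 1 month, against 8.84, 8.73 and 9.14 at 4 hr. The groups did not overlap, yet the difference of -1.37 ± 0.38 missed the threshold (adjusted p = 0.0562). Of 17 p53 targets 2 fell (11.8%) and none rose. Phlda3, an inhibitor of Akt, stood at 10.24, 9.56, 9.87 and 9.80 at 1 month, against 10.71, 11.14 and 10.84 at 4 hr, a decrease of 1.03 ± 0.17 (adjusted p = 0.0104). The other was Bbc3 (PUMA), at -0.63 ± 0.17 (adjusted p = 0.0475), while the list median was 0.06. Over 18 alternatives Usp2 lost its call in 7, Sult1a1 in 4, Mt1 in 5 and Phlda3 in 2, and Bbc3 in 9 of 17, each time among them without 4-hr replicate 2.

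Of the epithelial and milk genes, Mfge8, which coats milk fat globules, rose by 0.58 ± 0.16 (adjusted p = 0.0484). It was alone among 20 (5%, beside 0.627% of all genes that were called higher). The call was lost in 11 of 18 alternatives, with adjusted p from 0.0207 to 0.363. These were the fits without 1-month replicate 1, 2 or 3, without 1-month replicates 2 and 4 together, without 4-hr replicate 2 or 3, with the replicate block, the plate column or array weights, and with 7 or 43 arrays. The luminal list had 17 of 18 genes above 0 with a median of 0.33, and the basal myoepithelial list 12 of 14 with a median of 0.35, and neither had a call. In the luminal list Epcam stood at 11.25, 11.56, 11.86 and 11.16 at 1 month, against 10.95, 10.81 and 10.97 at 4 hr, a difference of 0.55 ± 0.25 (adjusted p = 0.254). No gene was called in the lists for macrophages, T cells, B cells, endothelium, fibroblasts, fibrillar collagen, basement membrane, the interferon response or DNA replication.

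Mitosis genes varied from mouse to mouse. Their mean level relative to the 7-array median was 0.34, -0.40, 2.13 and -0.45 at 1 month, against -0.28, -0.01 and 1.11 at 4 hr. Replicate 3 was high at both times, and highest in each group. The median difference over 33 genes was 0.15 with 0 calls and 0 genes at an unadjusted p under 0.05, and it ran from -0.44 without 1-month replicate 3 to 0.58 over the fits with 1 array left out.

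Skeletal muscle transcripts stood high in 1-month replicate 2 and, less so, in 1-month replicate 4. Acta1, skeletal actin, stood at 5.87, 12.50, 5.32 and 8.23 at 1 month, against 4.99, 6.24 and 5.62 at 4 hr. Replicate 2 stood far above the rest and replicate 4 in between. Over the 25 genes the mean level relative to the 7-array median was -0.09, 4.24, -0.12 and 0.91 at 1 month, against -0.07, 0.08 and -0.11 at 4 hr. The list of 25 genes had 0 calls and a median of 1.23, which was 0.15 without replicate 2 and -0.08 without both. Without replicate 2 the medians were -1.15 for cholesterol synthesis, -1.0 for fatty acid synthesis, -0.33 for the respiratory chain and -1.29 for brown adipocyte genes, close to those with it. Without replicates 2 and 4 they were -1.14, -1.04, -0.37 and -1.32, with no call in these lists, and 21 genes were lower and 1 higher in all.

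The same interval was then set beside the irradiated C57BL/6 mice and sham BALB/c mice, which do not share arrays with the sham C57BL/6 groups. In LD mice, 4 per time, no gene was called between 1 month and 4 hr (0%) by limma, with 2143 genes at an unadjusted p under 0.05. In HD mice, 4 per time, 76 genes fell and 116 rose, and by the brightest probe set 57 fell (0.483%). In BALB/c sham mice, 3 per time, none was called (0%), with 1096 at an unadjusted p under 0.05. The cholesterol list had a median of -1.20 in C57BL/6 sham, -0.64 in LD, -0.47 in HD and -0.40 in BALB/c sham mice, with no call in these last 3. The fatty acid list followed the same order, with -1.10, -0.60, -0.38 and -0.28. For the respiratory chain the medians were -0.34, -0.20, -0.23 and -0.03, and for brown adipocyte genes -1.31, -0.69, -0.94 and -0.42. The growth hormone and IGF list lay at 0.36, 0.32, 0.28 and 0.24.

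**Figure D5:**
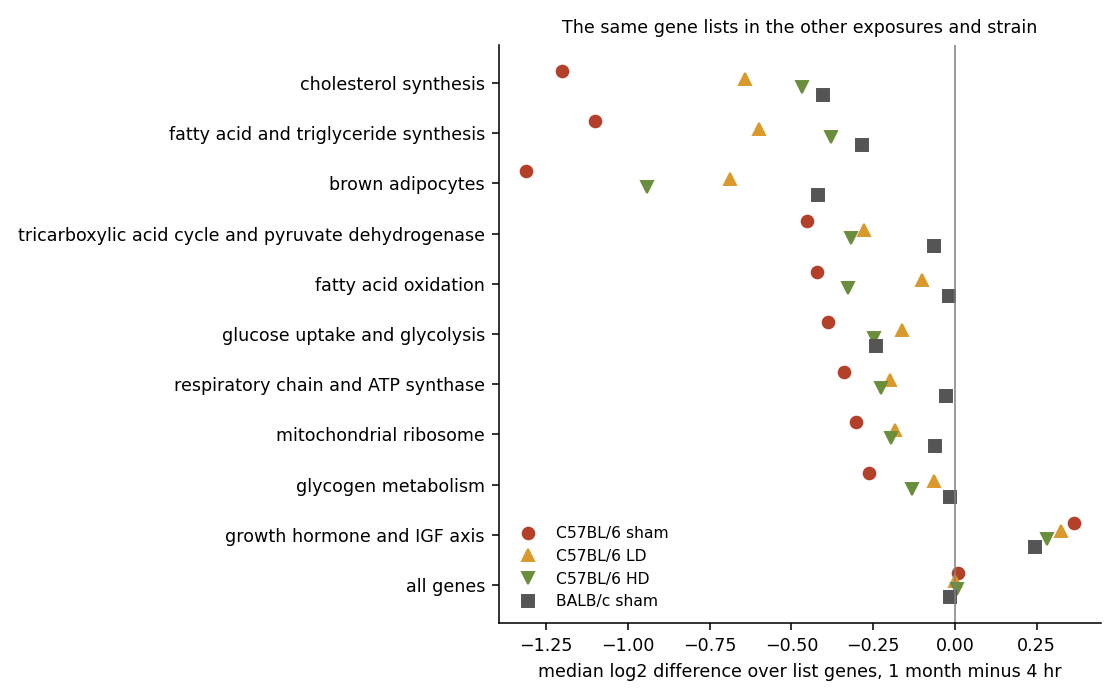
Median over list genes of the log2 difference between 1 month and 4 hr (x axis) for C57BL/6 sham, LD and HD mice and BALB/c sham mice. The C57BL/6 sham point is the most negative for cholesterol (-1.20) and fatty acid (-1.10) synthesis, and all genes together lie near 0.

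The C57BL/6 sham time difference was tested gene by gene against those of LD and of BALB/c sham mice, and no gene passed. It was not tested against that of HD mice. For C57BL/6 sham minus LD, 0 of 11807 genes (0%) were called by limma, with 1495 at an unadjusted p under 0.05. For C57BL/6 sham minus BALB/c sham, 0 (0%) were called, with 1389 at an unadjusted p under 0.05. The standard errors of these differences were larger, with a median of 0.19 for the strain difference against 0.12 for the sham comparison itself. Angptl8 differed by -0.36 in LD, -0.25 in HD and -1.31 in BALB/c sham mice, beside -3.11 in C57BL/6 sham mice, and the strain difference was -1.80 (adjusted p = 0.663). Angptl4 differed by 0.59, -0.17 and 0.58 in the same 3, and Irs1 by 0.58, 0.42 and 0.64. For Irs1 the strain difference was 0.14 (adjusted p = 0.92). None of the 20 genes named from the top of the sham comparison reached an adjusted p under 0.05 in LD, HD or BALB/c sham mice.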

How the data were processed

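RNA from the mammary glands of individual mice was hybridised to 1-colour oligonucleotide arrays, with all C57BL/6 arrays on 1 plate. The deposited values were log2 intensities that the authors normalized by RMA, and the submitters' processing notes also name limma, with no version given in the sources used here. RMA evens the distributions of arrays, so values are relative within an array. The study's methods give 4 mice per group, and 3 sham arrays at 4 hr were used here. The number of arrays limits the precision.

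Differences (1 month minus 4 hr) were fitted with limma 3.58.1 in R 4.3.3 over the 23 C57BL/6 mammary arrays, and strain differences over 43, with Benjamini-Hochberg adjustment over all 22626 probe sets. Of these 18003 had 1 gene symbol (11807 genes), 287 several and 4336 none. Lists used the brightest probe set of a gene, named genes that with the smallest p. The 10 genes with the highest and the 10 with the lowest differences, called and without overlap, were named, with up to 4 members of each list. The groups, members and lists were chosen with earlier results of these data known. Of the 44 lists, 5 were added after the values of the fit were seen, as were the comparisons with LD and HD mice. Alternatives left out each sham array in turn and changed scaling, filter, variance model, covariates and the arrays in the fit. The fit was tested on simulated data. The labels do not say whether replicate numbers pair mice, and they were treated as names only. Plots used Python 3.11.15 with matplotlib 3.10.9.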

Additional observations from a re-analysis of the deposited data

Results flagged for a closer look

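Among the 4 arrays of the 1-month group, 6 of 64 measures had 1 array further from the rest than Dixon's 95% critical value allows, where chance gives about 5%. The clock list score was -0.17 in replicate 1, the lowest array. In replicate 2, the array with the most muscle transcripts, the scores of the interferon response (0.36), the unfolded protein response (0.25) and glucose uptake and glycolysis (0.25) were the highest. The glycogen list score was 0.02 in replicate 4, above the other 3 arrays. The level of Chil1 was 7.46 in replicate 3, below the other 1-month arrays. Groups of 3 were not examined in this way.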

How the results depend on the processing

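No called gene reversed its direction under any alternative. These genes were picked by that difference in the same arrays, so this adds no support. The medians of 13 of 44 lists changed sign with a single array left out, widest for mitosis (-0.44 to 0.58). The p53 list was the 1 list among them that had a call. Leaving out 1 sham array at a time gave 0 to 180 genes higher, 0 to 402 lower, 159 to 433 past 1.5-fold and p under 0.01, and 0 to 1 with a strain difference. That 1 gene was Uqcr10, at -1.16 (adjusted p = 0.0447) without 4-hr replicate 3. Higher genes numbered 213 with only the brighter probe sets, 174 with all 43 mammary arrays in the fit and 14 with the 7 sham arrays alone, where 121 were lower. With a 1.5-fold minimum added to the adjusted p, 25 were higher and 170 lower. The other settings, which were plate column, median centring, quantile normalization, array weights, intensity trend with robust variances, and 1 probe set per gene, gave 77 to 99 higher and 290 to 376 lower. Leaving out 1-month replicates 2 and 4 together, chosen after seeing the data, gave 1 higher and 21 lower. The replicate number as a block gave 59 higher and 258 lower. Deviations of same-numbered sham arrays correlated at 0.01, 0.02 and 0.22, too few values to tell whether the numbers carry anything shared. Over single genes, 640 of the values lost their call under an alternative, 39 gained one and 3412 kept their direction and their side of the threshold. The 3412 include genes that were called in neither fit, so they are no measure of how many calls held. Most losses in 1 setting, 101, came without 4-hr replicate 2, where no gene was called. The cause of these shifts was not tested.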
